A study of Mus musculus with 4 samples.

Results

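A set of 41 genes of intrinsic apoptosis, p53 signalling and necroptosis was read in ischaemic mouse cortex on 2-colour microarrays. The genes were listed by symbol, under a rule that uses no measured ratio, but with earlier results of these data known. A probe was assigned to a gene through its RefSeq accession, and the brightest probe stood for the gene. In all, 24575 features were tested, 17024 of them with a gene symbol, and 40 of the 41 listed genes were among them. No probe matched Bcl2a1b, an anti-apoptotic BCL2 relative. The mice carried the label Ndrg2KO or wildtype. Ndrg2, an N-myc downstream regulated gene, is strongly expressed in astrocytes, and the labels gave no detail of the knockout allele. All mice were C57BL/6, 8 weeks old, and had undergone permanent MCAO, the closure of the left middle cerebral artery by electrocoagulation, a model of ischaemic stroke. Cortex of the injured side was taken 24 h later in both groups, and uninjured cortex was not analysed here. On each of the 4 arrays, 1 knockout-labelled sample (Cy3) was hybridised with 1 wild-type sample (Cy5) that carried the same replicate number. The values below are log2 ratios with the wild-type signal as denominator, so a value above 0 means more signal in the knockout-labelled sample. Means are given ± SD over the arrays (n = 4).

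Intrinsic apoptosis is the route to cell death that runs through the mitochondria. BH3-only proteins sense damage and neutralise the anti-apoptotic BCL2 family or directly activate BAX and BAK, which then open the outer mitochondrial membrane. Cytochrome c that leaves the mitochondria assembles APAF1 and caspase 9 into the apoptosome, and this in turn activates the executioner caspases. p53 drives transcription of Bax, Bbc3, Pmaip1 and Apaf1, of the cell-cycle inhibitor Cdkn1a and of its own inhibitor Mdm2. Death receptors enter the same pathway through FADD and caspase 8, and where caspase 8 is inactive RIPK1, RIPK3 and MLKL can carry out necroptosis, a lytic form of death. All of these routes are known to be engaged in neurons and glia after stroke.

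Of the 40 tested members, 2 rose in the knockout-labelled samples, 8 fell and 30 did not pass, where passing means an adjusted p under 0.05 in limma with Benjamini-Hochberg adjustment over all features. The members that rose were Bax and the BH3-only gene Bbc3. The members that fell were the anti-apoptotic Bcl2l1 and Bcl2l2, the death-receptor genes Casp8, Fadd and Cflar, the necroptosis kinases Ripk1 and Ripk3, and the p53 inhibitor Mdm2. The changes were small: Bax was 1.42-fold higher, 7 members differed by at least 1.2-fold in their mean, all of them called except Bmf, and 0 by 1.5-fold. The called share of the members was 25%, against 21.2% of all features, of which 8.62% rose and 12.6% fell, so the members were called about as often as features at large. The median log2 ratio of the members was -0.005 and that of all features was -0.02, and the median absolute log2 ratio was 0.09 in both.

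The arrays were not alike. Log2 ratios over all features correlated at 0.72 between arrays 1 and 2 and at 0.63 between arrays 3 and 4, but at 0.41 to 0.47 between the other pairs, which is a description over features of samples on 1 slide. The Ndrg2 probe was bright in both channels, and its log2 ratios were -0.22, -0.22, -0.18 and -0.11 (mean -0.18 ± 0.05; adjusted p = 0.0249 in limma), only 1.13-fold lower in the knockout-labelled samples. Whether the probe lies inside the deleted part of the gene is not given in the sources used here, so this does not check the genotype and the samples are called knockout-labelled. The size of the Ndrg2 ratio depended on the processing. With the scanner software's own processed signals it was -0.04, and with median centring of each array in place of loess it was -0.81. The latter stood at -0.64 relative to the median of all features under that setting. In the main processing the call ended without array 1, 2 or 3 (adjusted p of 0.0843, 0.0892 and 0.0733, log2 ratios of -0.17 to -0.18). Every array had the same dye orientation, so a dye effect that remains after normalization cannot be told apart from genotype. Nothing in the labels ties each sample to an animal of its own, so p-values measure the spread between these samples, which may be technical, and the number of arrays limits the precision.

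**Figure D1:**
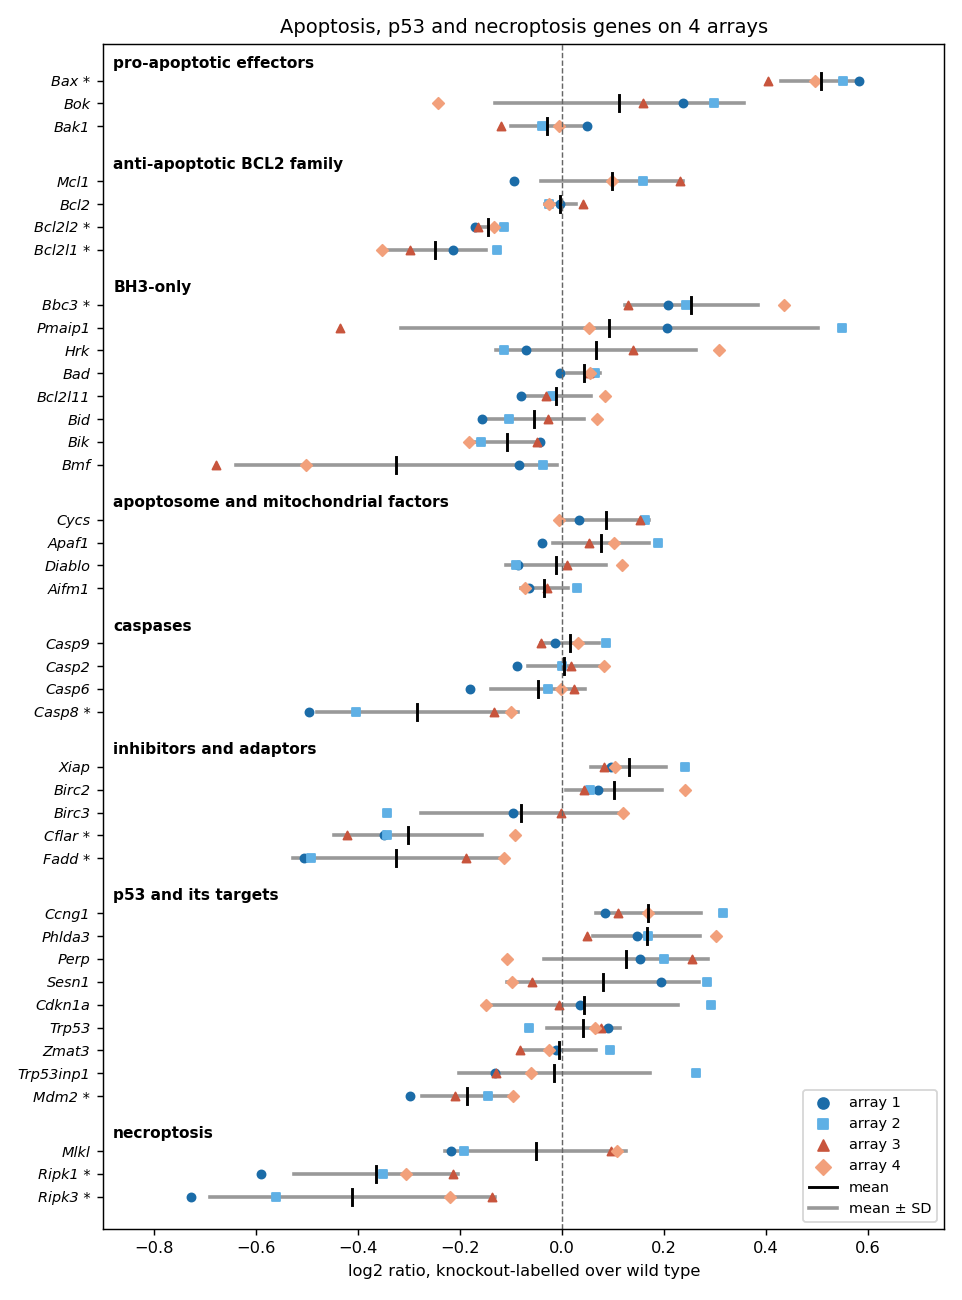
Log2 ratio, knockout-labelled over wild type (horizontal axis), of the 40 tested members, grouped by role, with 1 point per array, a black bar for the mean, a grey line for ± SD over 4 arrays and an asterisk by the 10 that passed. Bax lies highest at 0.51 and Ripk3 lowest at -0.41, and most other means lie close to 0.

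Among p53 and its classical targets only Mdm2 passed. Of 9 genes in this group, 0 rose, 1 fell and 8 did not pass, with a median log2 ratio of 0.04. Trp53, the gene of p53, gave 0.09, -0.06, 0.08 and 0.07 on arrays 1 to 4 (mean 0.04 ± 0.07, 95% interval -0.06 to 0.15; adjusted p = 0.533 in limma). Only array 2 was below 0, and the channel values of the groups overlapped. Mdm2, whose product marks p53 for degradation and is itself a p53 target, gave -0.30, -0.14, -0.21 and -0.10 (mean -0.19 ± 0.09; adjusted p = 0.0336). It was 1.14-fold lower, and all 4 knockout-labelled channel values lay below all 4 wild-type values. The Mdm2 call ended when any single array was left out, with adjusted p-values of 0.111, 0.0824, 0.0975 and 0.0508 without arrays 1 to 4 and log2 ratios of -0.15 to -0.22.

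Cdkn1a, which encodes the cyclin-dependent kinase inhibitor p21, gave 0.04, 0.29, -0.01 and -0.15 (mean 0.04 ± 0.18, interval -0.12 to 0.21; adjusted p = 0.691 in limma). The arrays disagreed in sign. In the knockout-labelled channel its log2 intensity ranged from 11.27 to 11.84 and in the wild-type channel from 11.24 to 11.84, so the samples within each group differed far more than the groups. A much dimmer second Cdkn1a probe gave -0.06, 0.11, 0.12 and 0.23 (mean 0.10 ± 0.12). Ccng1, encoding cyclin G1, gave 0.08, 0.32, 0.11 and 0.17 (mean 0.17 ± 0.10; adjusted p = 0.0542). Phlda3, encoding an inhibitor of AKT signalling, gave 0.15, 0.17, 0.05 and 0.30 (mean 0.17 ± 0.10; adjusted p = 0.0579). Both were above 0 on every array and missed the threshold narrowly. Their calls changed with the variance model: with an intensity trend Ccng1 had an adjusted p of 0.0433 and Phlda3 of 0.0414. Perp, a membrane protein gene of the p53 response, averaged 0.12 ± 0.16, and Sesn1, encoding a stress-induced inhibitor of growth signalling, averaged 0.08 ± 0.19 with arrays 1 and 2 above 0 and arrays 3 and 4 below. Zmat3, an RNA-binding protein gene, and Trp53inp1, a p53-induced nuclear protein gene, both averaged -0.01. A dimmer second Trp53inp1 probe averaged 0.14 ± 0.09 and was above 0 on every array.

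The p53 protein binds DNA as a tetramer, and each pair of subunits contacts a 10-base consensus known as the p53 decamer. The RefSeq promoter table (GRCm38.p6) was searched for this decamer, which is its own reverse complement and so covers both strands, in the 250 bases before each transcription start. A decamer was present in 7 of the 36 members with an entry (19.4%) and in 2216 of all 27025 genes with one (8.20%). It occurred in 5 of the 6 members of the p53 group that had an entry. Known p53 targets were put on the member list as such, so these shares are no test of the list. The sequences of Bax and Mdm2, the carriers that passed, and of Cdkn1a and Ccng1, the classical targets that did not, are shown 5′ to 3′ on the strand of the gene, with the decamer in capitals and 20 bases on either side.
Bax: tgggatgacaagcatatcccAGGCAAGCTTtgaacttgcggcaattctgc
Mdm2: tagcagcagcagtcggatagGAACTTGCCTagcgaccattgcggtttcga
Cdkn1a: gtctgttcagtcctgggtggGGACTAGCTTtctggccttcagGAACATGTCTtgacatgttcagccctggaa
Ccng1: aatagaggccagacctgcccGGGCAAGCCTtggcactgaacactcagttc
The Bax window lies at chr7:45467070-45467119 on the minus strand, with its decamer starting 201 bases before the start site. The Mdm2 window lies at chr10:117710915-117710964 on the minus strand (186 bases before), the Cdkn1a window at chr17:29090886-29090957 on the plus strand (73 and 51 bases before) and the Ccng1 window at chr11:40755442-40755491 on the minus strand (185 bases before). The other carriers were Bmf, Trp53 and Sesn1. Of the 7 carriers, 1 rose (Bax), 1 fell (Mdm2) and 5 did not pass, where 8.62% of all features rose and 12.6% fell. These counts are too small to give a direction for carriers, and the Mdm2 call ended when any single array was left out. A match is a description of these letters and shows no binding.

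Among the BH3-only genes, the sensors of the pathway, only Bbc3 passed. Of 8 genes, 1 rose, 0 fell and 7 did not pass, with a median of 0.02. Bbc3, which encodes PUMA, an inducer of apoptosis under p53 control, gave 0.21, 0.24, 0.13 and 0.44 (mean 0.25 ± 0.13; adjusted p = 0.0228 in limma), a 1.19-fold rise. All knockout-labelled channel values, 11.21 to 11.51 in log2 intensity, exceeded all wild-type values, 10.97 to 11.18. This call depended on the processing. It ended without array 1 (log2 ratio 0.27, adjusted p = 0.0629), array 2 (0.26, 0.0746) or array 4 (0.19, 0.0611). With median centring of each array in place of loess the Bbc3 ratio was -0.045, which was 0.13 above the median of all features under that setting, -0.18.

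Pmaip1, which encodes NOXA, another p53-induced BH3-only protein, was the most variable member. It gave 0.21, 0.55, -0.44 and 0.05 (mean 0.09 ± 0.41; adjusted p = 0.656 in limma). The spread came from the knockout-labelled samples, whose log2 intensities ran from 9.72 to 10.61 (SD 0.36), whereas the SD over the wild-type samples was 0.07. Bmf, which encodes a BH3-only protein bound to the cytoskeleton, gave -0.08, -0.04, -0.68 and -0.50 (mean -0.33 ± 0.31; adjusted p = 0.0722). Its mean was among the lowest of all members, but arrays 3 and 4 carried nearly all of it and it did not pass. Bik, a BH3-only gene of the endoplasmic reticulum, averaged -0.11 ± 0.07, and its probe was well above background in the knockout-labelled channel on only 1 array. Hrk, a BH3-only gene active in neurons, gave -0.07, -0.11, 0.14 and 0.31, again split between arrays 1 and 2 and arrays 3 and 4. Bcl2l11, which encodes BIM, averaged -0.01 ± 0.07 and Bid, whose product links caspase 8 to the mitochondria, -0.05 ± 0.10. Bad, whose product is held inactive by survival kinases, averaged 0.04 ± 0.03 on its brightest probe and 0.33 ± 0.01 on a dimmer probe that was above 0 on every array.

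Of the 3 pore-forming effectors, Bax rose and the other two did not pass. Its knockout-labelled log2 intensities were 12.73, 12.61, 12.64 and 12.63, and its wild-type intensities were 12.14, 12.05, 12.24 and 12.13. The groups did not overlap, and the samples within each group lay close together. The log2 ratios were 0.58, 0.55, 0.40 and 0.50 (mean 0.51 ± 0.08, 95% interval 0.40 to 0.62; adjusted p = 0.00193 in limma). The call was kept under all 16 alternatives, leaving out each array included, with log2 ratios of 0.16 to 0.54, the lowest under median centring, where it stood 0.34 above the median of all features. The array held a single Bax probe, so no other probe could be set beside it. Bak1, which encodes the partner pore protein BAK, gave 0.05, -0.04, -0.12 and -0.01 (mean -0.03 ± 0.07, interval -0.13 to 0.08; adjusted p = 0.675). Bok, the third pore-forming relative, gave 0.24, 0.30, 0.16 and -0.24, so that 1 array opposed the others (mean 0.11 ± 0.24; adjusted p = 0.385).

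**Figure D2:**
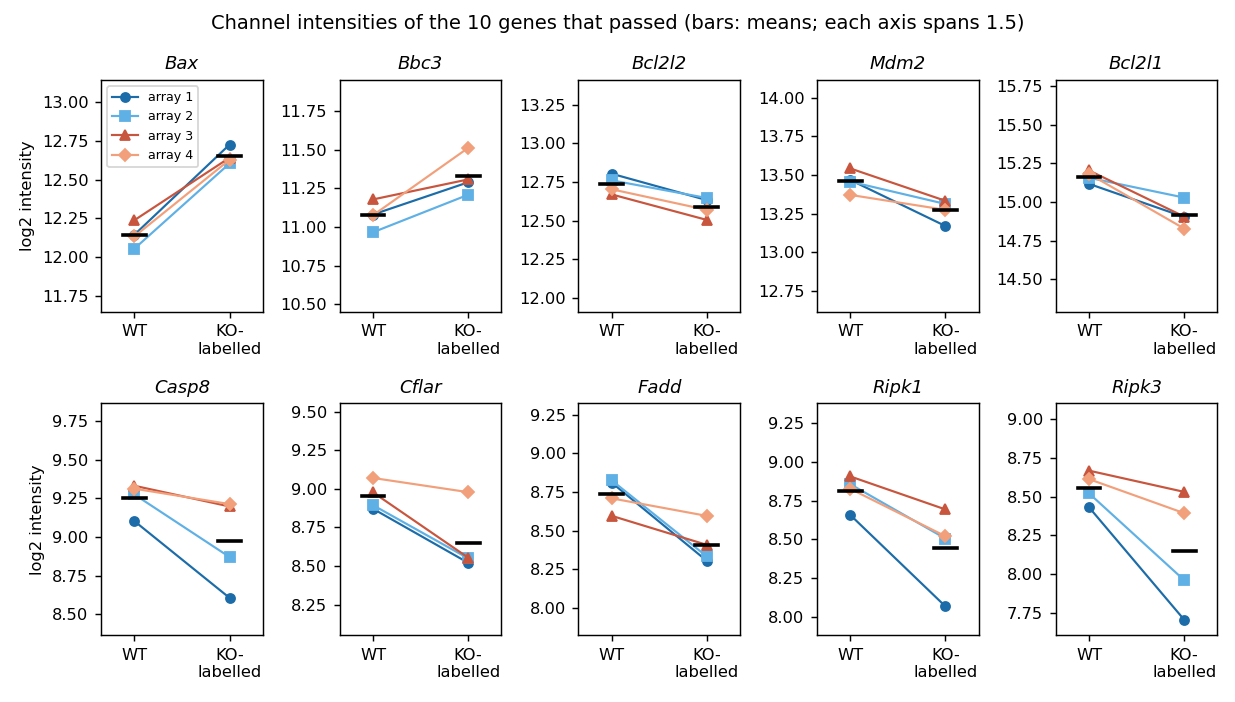
Log2 intensity (vertical axis) in the wild-type and knockout-labelled channels for the 10 members that passed, with lines joining the samples of 1 array, points for the 4 samples of each group and bars for the means. Bax and Bbc3 lie higher in all 4 knockout-labelled samples, and Ripk3 falls mainly on arrays 1 and 2.

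Among the anti-apoptotic genes, 2 of 4 tested fell and 2 did not pass (median -0.07). Bcl2l1, which encodes BCL-XL, the main survival factor of mature neurons in this family, gave -0.21, -0.13, -0.30 and -0.35 (mean -0.25 ± 0.10; adjusted p = 0.0169 in limma). All knockout-labelled values lay below all wild-type values. A dimmer second Bcl2l1 probe gave the opposite sign on every array, 0.15, 0.32, 0.27 and 0.19, and the mean of both probes was -0.01 (adjusted p = 0.906). The direction of Bcl2l1 therefore depends on which probe stands for it. Its call also ended without array 1 (-0.26, adjusted p = 0.0519), array 3 (-0.23, 0.0595) or array 4 (-0.21, 0.0553).

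Bcl2l2, which encodes BCL-W, gave -0.17, -0.11, -0.16 and -0.13 (mean -0.15 ± 0.03; adjusted p = 0.0402 in limma). This 1.11-fold decrease had the smallest spread of the passing members, yet the call ended when any single array was left out, with adjusted p-values of 0.118, 0.0938, 0.113 and 0.102 and log2 ratios of -0.14 to -0.16. Its second probe averaged -0.08 ± 0.07. Bcl2l2 lies on chromosome 14, 2.97 Mb from Ndrg2 in the RefSeq table, so that sequence linked to the targeted allele cannot be told apart from the genotype. Bcl2, the founder of the family, gave -0.004, -0.02, 0.04 and -0.02 (mean -0.003 ± 0.03, interval -0.10 to 0.09; adjusted p = 0.965). Mcl1, which encodes a short-lived survival factor, gave -0.09, 0.16, 0.23 and 0.10 on its brightest probe (mean 0.10 ± 0.14; adjusted p = 0.265) and averaged -0.19 ± 0.22 on the other. Bcl2a1d, a near-identical copy of the unmatched Bcl2a1b that was looked up after the match had failed, gave -0.55, -0.62, -0.31 and -0.10 (mean -0.39 ± 0.24; adjusted p = 0.0215). The copies share most of their sequence, so this value may hold signal of either gene.

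The apoptosome and the factors that leave the mitochondria did not pass. Of 4 genes, 0 rose and 0 fell, with a median of 0.03. Apaf1, the scaffold of the apoptosome, gave -0.04, 0.19, 0.05 and 0.10 (mean 0.08 ± 0.09; adjusted p = 0.298 in limma). Cycs, encoding cytochrome c, averaged 0.09 ± 0.08 on its brightest probe. Its other probes averaged -0.01 ± 0.11 and -0.13 ± 0.07, the latter below 0 on every array. Diablo, whose product relieves inhibition of caspases, averaged -0.01 ± 0.10, and 0.17 ± 0.11 on a dimmer probe that was above 0 on every array. Aifm1, encoding apoptosis-inducing factor, averaged -0.03 ± 0.05. Casp9, the initiator caspase of the apoptosome, gave -0.01, 0.09, -0.04 and 0.03 (mean 0.02 ± 0.06, interval -0.08 to 0.12; adjusted p = 0.817). Casp2, an initiator caspase of stress responses, averaged 0.003 ± 0.07 and Casp6, an executioner, -0.05 ± 0.09. None of these 3 caspases passed, and for Casp9 the interval excludes a change as large as that of Bax.

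Of the 4 member caspases 1 fell, and of the 5 inhibitors and adaptors 2 fell, and all of these act at death receptors. Casp8, the initiator caspase of death receptors, gave -0.50, -0.40, -0.13 and -0.10 (mean -0.28 ± 0.20; adjusted p = 0.0357 in limma). Fadd, the adaptor that recruits caspase 8, gave -0.51, -0.49, -0.19 and -0.11 (mean -0.32 ± 0.20; adjusted p = 0.0259). Both genes thus had log2 ratios on arrays 1 and 2 well below those on arrays 3 and 4, and only for Fadd did no channel values overlap. Cflar, which encodes c-FLIP, the catalytically inactive relative that restrains caspase 8, gave -0.35, -0.34, -0.42 and -0.09 (mean -0.30 ± 0.14; adjusted p = 0.0167). Here array 4 stood nearest to 0. This Cflar probe carries the accession of another transcript than the other 2 Cflar probes, which both averaged 0.02, and the mean of all 3 was -0.09 (adjusted p = 0.214).

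The Casp8 call ended without array 1 (-0.21, adjusted p = 0.113), array 2 (-0.24, 0.127) or array 3 (-0.33, 0.0528). The Fadd call ended without array 1 (-0.26, adjusted p = 0.0912) or array 2 (-0.27, 0.0959). The Cflar call ended without array 1 (-0.29, adjusted p = 0.0631), array 2 (-0.29, 0.0663) or array 3 (-0.26, 0.0578). The remaining inhibitors did not pass. Xiap, the most potent direct inhibitor of caspases, gave 0.10, 0.24, 0.08 and 0.10 (mean 0.13 ± 0.07; adjusted p = 0.0803). Birc2, which encodes the ubiquitin ligase cIAP1, averaged 0.10 ± 0.09, and its close relative Birc3 averaged -0.08 ± 0.20. Xiap and Birc2 were above 0 on every array with channel values that did not overlap.

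Of the 3 necroptosis genes, both kinases fell and the executor did not pass. Ripk1, the kinase downstream of TNF receptors, gave -0.59, -0.35, -0.21 and -0.31 (mean -0.37 ± 0.16; adjusted p = 0.0114 in limma), a 1.29-fold decrease that kept its call when any single array was left out. Ripk3, the kinase that phosphorylates MLKL, gave -0.73, -0.56, -0.14 and -0.22 (mean -0.41 ± 0.28; adjusted p = 0.0273), the lowest mean of all members. In the knockout-labelled channel Ripk3 measured 7.70 and 7.96 in log2 intensity on arrays 1 and 2 against 8.53 and 8.39 on arrays 3 and 4, whereas the wild-type channel stayed between 8.43 and 8.67. The groups overlapped, and the call ended without array 1 (-0.31, adjusted p = 0.0787) or array 2 (-0.36, 0.102). Ripk3 also lies on chromosome 14, 3.87 Mb from Ndrg2, and linked sequence and genotype cannot be told apart there. Mlkl, whose product ruptures the plasma membrane, gave -0.22, -0.19, 0.10 and 0.11 (mean -0.05 ± 0.18, interval -0.21 to 0.11; adjusted p = 0.622). Mlkl shared the split between arrays 1 and 2 and arrays 3 and 4, with a change of sign.

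The medians of several marker lists, monocyte, macrophage and neutrophil markers among them, were also lowest on arrays 1 and 2. The median log2 ratio of 7 tested monocyte and macrophage markers was -0.49, -0.54, -0.18 and 0.07 on arrays 1 to 4, and 3 of the 7 fell (Ms4a4c, Adgre1 and Itgam). The median of 9 tested neutrophil markers was -0.22, -0.30, -0.12 and 0.04, with 2 lower, while Ly6g, Ltf and Ngp had no tested probe. For 8 tested markers of T, B and NK cells the medians were -0.06, -0.21, -0.15 and 0.03, with 1 lower. The summed monocyte and macrophage signal ranged from 15.66 to 15.79 in log2 intensity in the knockout-labelled channel and from 15.96 to 16.18 in the wild-type channel, and the summed neutrophil signal from 15.47 to 15.73 and from 15.82 to 16.02. Microglial markers fell in 4 of 10 cases and astrocyte markers in 3 of 9, with 0 higher in either list. Over all features 12.6% fell. Microglial markers had medians of -0.12, -0.11, -0.01 and -0.20 on arrays 1 to 4, lowest on array 4. Astrocyte markers had medians of -0.23, -0.21, -0.05 and -0.15 on arrays 1 to 4. Endothelial markers had -0.19, -0.15, -0.04 and -0.03, with 1 of 8 lower. Pericyte and fibroblast markers had -0.23, -0.33, -0.10 and -0.18, with 2 of 8 lower. Erythrocyte markers had -0.29, -0.63, -0.05 and 0.19, with 0 of 5 called. Striatal markers, which gauge how much tissue below the cortex was dissected, had medians of -0.41, -0.56, 0.23 and -0.04, and 0 of 8 passed. Oligodendrocyte markers had medians of -0.09, -0.26, 0.25 and 0.37, with 2 of 8 higher. The neuronal list had a median of 0.06, with 1 of 10 higher and 1 lower. In bulk tissue, fewer cells of a type and less RNA per cell cannot be told apart, and the part of these markers in the values of Casp8, Fadd, Ripk1 and Ripk3 was not tested.

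**Figure D3:**
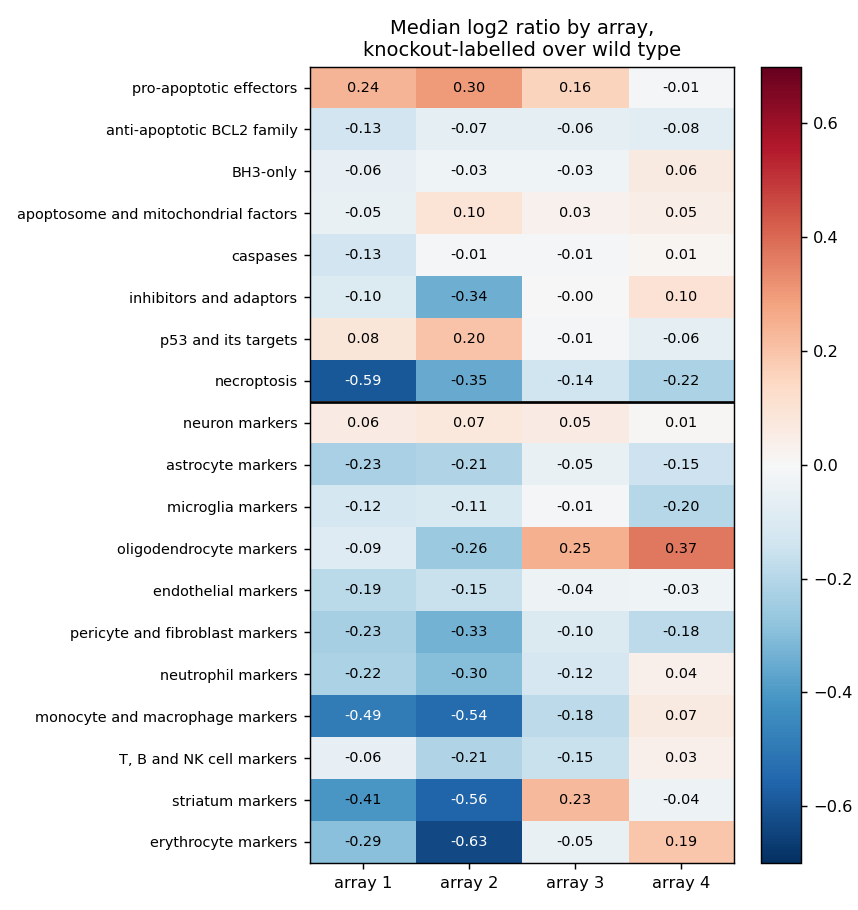
Median log2 ratio of each role group of the members (upper rows) and of each list of cell type markers (lower rows) on arrays 1 to 4, coloured from blue (lower in knockout-labelled) to red (higher). The necroptosis row reads -0.59, -0.35, -0.14 and -0.22, and the monocyte and macrophage row, like several other marker rows, is also lowest on arrays 1 and 2.

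Over all 40 tested members, channel values of the groups did not overlap for 10 (25%), against 19.6% of all features. These 10 were Bax, Bbc3, Xiap, Birc2 and Phlda3, which were higher in the knockout-labelled channel, and Bcl2l1, Bcl2l2, Bik, Fadd and Mdm2, which were lower. Casp8, Cflar, Ripk1 and Ripk3 passed with overlapping channels, since the test compares the samples within each array. In all, 16 of 40 members had the same sign on all 4 arrays (40%), against 43.8% of all features. An unadjusted p under 0.05 in limma was reached by 15 of the 40 members and by 9156 of the 24575 features, a similar share.

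Other probes of the same genes often disagreed. Of the members, 31 had 1 tested probe, and 9 had others, 11 in all. Only 3 of the 11 had the sign of the brightest probe. Among the passing genes, 1 of 4 other probes did, that of Bcl2l2, while those of Bcl2l1 and Cflar did not. Over all genes, 57.3% of 5465 other probes shared the sign, and 61.7% of the 1346 that belonged to passing genes. Bax, Bbc3, Casp8, Fadd, Mdm2, Ripk1 and Ripk3 rest on a single probe each.

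**Figure D4:**
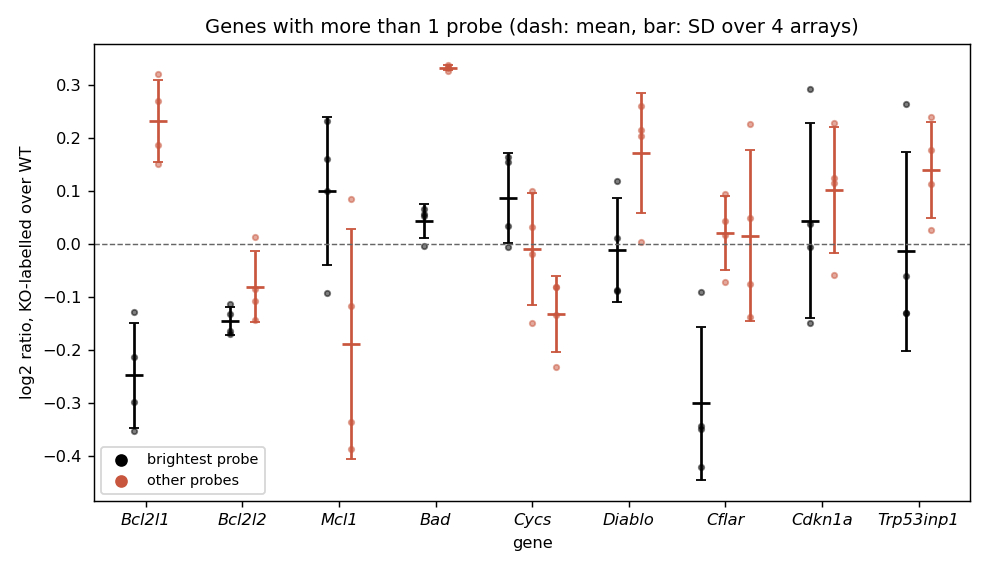
Log2 ratio (vertical axis) of every tested probe of the 9 members with more than 1 probe, with points for the 4 arrays, a dash for the mean and a bar for ± SD, the brightest probe in black and others in red. The Bcl2l1 probes lie on opposite sides of 0 at -0.25 and 0.23, and the dimmer Bad probe lies at 0.33.

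Related genes outside the member list were called at a share close to that of the members. Of 108 listed, 106 were tested (Eda2r and Bcl2l10 were not), 13 rose, 14 fell and 79 did not pass, a called share of 25.5% against 21.2% of all features. Of 29 other p53 targets, 2 rose and 3 fell (median 0.03). The lowest p-values there were those of Gdf15, a stress-induced cytokine gene at -0.26 ± 0.05 (adjusted p = 0.00937 in limma), Tigar, a regulator of glycolysis at -0.25 ± 0.06 (adjusted p = 0.0107), and Plk3, a stress-response kinase gene at 0.22 ± 0.11 (adjusted p = 0.0283). Fas, the death receptor that signals through FADD, fell as well, at -0.19 ± 0.11 (adjusted p = 0.0453), and Xpc, a DNA repair gene, rose at 0.16 ± 0.06. Over all features 8.62% rose and 12.6% fell, so these few calls give no direction for p53 targets.

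Of 20 regulators and relatives of p53, 4 rose and 5 fell. Chek2, a kinase gene of the DNA damage response, rose at 0.25 ± 0.03 (adjusted p = 0.00918 in limma). Usp7, which encodes the deubiquitinase that stabilises MDM2 and p53, fell at -0.27 ± 0.08 (adjusted p = 0.0112), and Pml, which encodes the organiser of nuclear bodies, fell at -0.26 ± 0.09 (adjusted p = 0.0126). Mdm4, the partner of Mdm2 in restraining p53, was lower at -0.16 ± 0.04 (adjusted p = 0.0313). It was not recomputed under the alternatives, and the Mdm2 call ended when any single array was left out. Among the other caspases, the inflammatory Casp1 and Casp12 fell at -0.17 ± 0.06 and -0.21 ± 0.03 (adjusted p = 0.0357 and 0.0135). Casp12 had no probe well above background in both channels on every array, and the size of its ratio depended on the processing. It was -0.15 without background correction, -0.60 with the scanner software's processed signals and 0.31 with median centring.

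Of 25 other mitochondrial genes, 3 rose and 2 fell. The risers were Endog, a mitochondrial nuclease gene, at 0.28 ± 0.05 (adjusted p = 0.00767 in limma), Bcl2l13, a mitophagy receptor gene, at 0.35 ± 0.17 (adjusted p = 0.0133), and Bnip3, a hypoxia-induced mitophagy receptor gene, at 0.26 ± 0.09 (adjusted p = 0.013). Ghitm and Ppif fell, and both lie on chromosome 14, at 14.8 and 26.2 Mb from Ndrg2. Of 15 other inhibitors and adaptors, 3 rose and 1 fell: Birc5 at 0.24 ± 0.13, Traf2, the adaptor of TNF receptors, at 0.27 ± 0.17, Faim2, an inhibitor of Fas signalling in neurons, at 0.16 ± 0.07, and Birc7 lower at -0.18 ± 0.11. Of 11 other necroptosis genes, 0 rose and Rbck1, a subunit gene of the linear ubiquitin ligase, fell at -0.25 ± 0.09 (adjusted p = 0.0147). Tnfrsf1a, the receptor upstream of Ripk1, gave -0.20 ± 0.13 and did not pass (adjusted p = 0.0502), nor did Ticam1, an adaptor of Toll-like receptors, at 0.15 ± 0.10. With median centring in place of loess, Endog, Plk3, Traf2, Bnip3 and Faim2 were below 0 and Casp12 was above 0. Endog, Plk3 and Traf2 were then no longer called (adjusted p of 0.833, 0.344 and 0.446), and relative to the median of all features under that setting they stood at 0.16, 0.11 and 0.12, Bnip3 at -0.09 and Faim2 at -0.16. Bcl2l13 at 0.06 and Birc5 at 0.01 lost their calls as well.

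Probe choice mattered for several of these related genes. With the mean of all kept probes the calls ended for Usp7 (log2 ratio -0.10, adjusted p = 0.125 in limma), Tigar (-0.13, 0.0798), Traf2 (0.05, 0.430), Bnip3 (0.08, 0.223) and Birc5 (0.16, 0.0674), and Pml moved to -0.16 with its call kept. Leaving out 1 array ended the calls of Birc5, Casp1 and Faim2 whichever array it was. It also ended those of Plk3 (array 2, 3 or 4), Traf2 and Rbck1 (array 1 or 2), Bcl2l13 (array 1), and Bnip3 and Pml (array 2). The adjusted p-values in these fits ran from 0.0503 to 0.140. Fas, Xpc, Mdm4, Birc7, Ghitm and Ppif were not recomputed under the alternatives.

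The processing set how many members were called. Without the pairing of samples by array, 2 members rose and 2 fell, the latter Bcl2l1 and Fadd. With the scanner software's processed signals, 1 rose and 1 fell, Bax and Bcl2l1. Of the calls of all features, 40.6% were higher, and of those of the members 20%, whereas median centring gave 32.5% and 12.1% and the scanner's signals gave 49.1% and 50%. Of the calls of related genes, 48.1% were higher, against 14.8% with median centring. The calls kept under the largest number of the 16 alternatives were those of Bax (16), Ripk1 (13), Bcl2l1 (12) and Fadd (12), followed by Ripk3 (11), Bbc3 (10), Casp8 (9), Cflar (9), Mdm2 (8) and Bcl2l2 (6). The scanner's signals and the deposited matrix are counted as 2 alternatives, although they gave the same values. The changes of filter, variance model and pairing reuse the same ratios, and the mean of all probes cannot move the ratio of a gene with 1 probe. The counts are therefore not counts of independent checks.

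**Figure D5:**
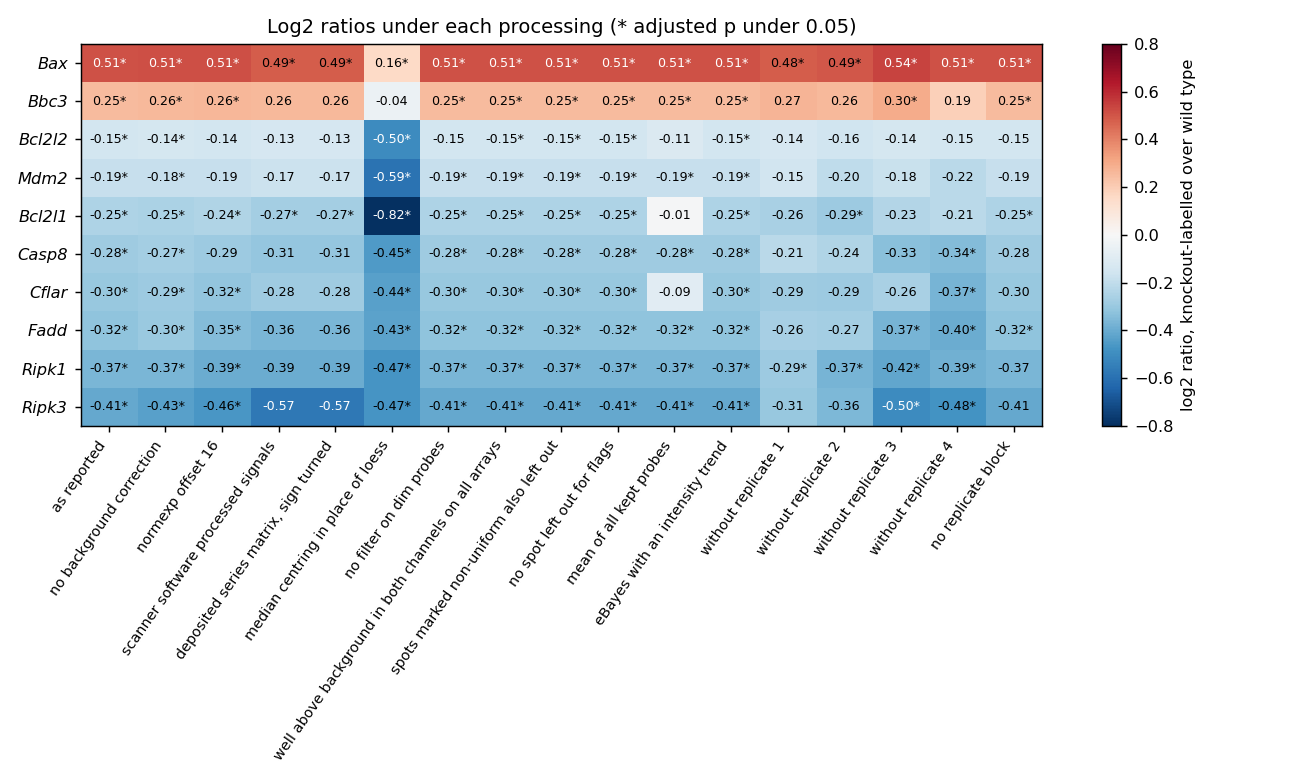
Log2 ratio of the 10 passing members (rows) as reported and under each of 16 alternatives (columns), coloured from blue (lower) to red (higher), with an asterisk where the adjusted p was under 0.05. Bax carries an asterisk under all 16, and Bbc3 turns to -0.045 with median centring.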

How the data were processed

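Total RNA of 4 knockout-labelled and 4 wild-type samples of cortex was hybridised in pairs on 4 arrays of 1 slide. Per the labels' protocols 200 ng was labelled per sample, in a text that speaks of plant shoots. Spot and local background intensities were used as deposited, from Agilent Feature Extraction 11.0.1.1 per the file headers (10.7.3.1 per the submitters' processing notes). The values of the deposited series matrix are log2 ratios: 39030 single-spot probes matched the scanner software's processed Cy5 signal divided by Cy3 (tolerance 0.001 in log2). They run opposite to the ratios used here, and their column medians were -0.05, -0.06, -0.04 and -0.03. Spot flags, of other units (0 or 1), were used as deposited.

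Median signals were corrected with normexp (offset 50) and loess within arrays in limma 3.58.1 (R 4.3.3). Controls and 136 to 181 outlier spots per array were left out, spots of 1 probe were averaged, and probes well above background on at least 3 arrays in either channel were kept, 30270 of 39429. Accessions were named through RefSeq (GRCm38.p6), which named 27427 probes (69.6%). Per the file headers the array design is annotated on mm9, so gene positions are given only as chromosome, distance or RefSeq promoter. Ratios were tested against 0 with lmFit and eBayes (Benjamini-Hochberg, adjusted p under 0.05). Array is the block that pairs samples: deviations of the 2 channels of an array from their group means correlated at 0.38 to 0.62. Channel levels are log2 intensities after loess and Aquantile. Spike-in log ratios rose with a slope of 0.728 to 0.739 against their design values, so ratios are compressed. The fitting steps were tested on simulated data.

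The members, the lists and the rule for named genes were chosen with earlier results of these data known. All members are named, and from each related list the up to 3 genes with the smallest p; further related genes named were chosen after their values were seen. A related gene under this rule is left out of the text. Alternatives were 16 changes of background, signal, normalization, filter, flags, probe choice, variance model, pairing and arrays left out.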

Additional observations from a re-analysis of the deposited data

Results flagged for a closer look

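Of 59 named genes, 4 had a single array far from the remaining arrays, measured as its gap to the nearest value over the whole range and set against Dixon's critical value. Chance alone flags about 1 in 20, or 2.95 of 59. For Xiap the share was 0.867, with array 2 at 0.24 and the others averaging 0.09. For Birc2 the share was 0.862, with array 4 at 0.24 and the others averaging 0.06. For Trp53 the share was 0.843, with array 2 at -0.06 and the others averaging 0.08. For Birc5 the share was 0.990, with array 2 at 0.43 and the others averaging 0.17.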

How the results depend on the processing

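All alternatives were planned, and Bax kept its call under every one. The main processing called 2119 features higher and 3100 lower, 2 members higher and 8 lower, and 13 related genes higher and 14 lower. With normexp offset 16, 5 members and 9 related genes were lower. With the scanner software's processed signals, which are also the deposited series matrix with its sign turned, 1752 features were lower, 1 member was higher and 1 lower, and 7 related genes were higher and 7 lower. With median centring 6339 features were higher and 13175 lower, 4 members higher and 29 lower, and 69 related genes lower, with a member median of -0.29. The mean of all probes left 5 members lower, and an intensity trend made 4 higher. Without the pairing by array (no replicate block) 1261 features were higher and 1560 lower, 2 members were lower, and 7 related genes were higher and 6 lower. Leaving out 1 array gave 803 to 1254 features higher and 1216 to 1905 lower, 1 to 2 members higher and 1 to 5 lower, and 4 to 6 related genes higher and 5 to 8 lower, with fewer samples in each fit. Filters and flags moved no member count past 1.5 times.

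Among named genes called in the main processing or under the alternative, the sign turned with median centring, where all features had a median of -0.18, and under no other alternative: Bok -0.22, Mcl1 -0.34, Bcl2l11 0.50, Bad -0.36, Bik 0.50, Hrk -0.28, Bbc3 -0.045, Cycs -0.45, Casp2 -0.31, Casp9 -0.33, Xiap -0.24, Birc2 -0.18, Cdkn1a -0.27, Phlda3 -0.21, Sesn1 -0.30, Mlkl 0.17, Bnip3 -0.27, Casp12 0.31, Endog -0.013, Faim2 -0.33, Plk3 -0.068 and Traf2 -0.060. Of the 30 members that did not pass, 25 had the opposite sign under at least 1 alternative, several with no call on either side, and 4 were called under some alternative other than median centring. The cause of these shifts was not tested. Dim probes limit the reading of Bik and Bcl2l11, which were not well above background in the knockout-labelled channel on every array. The related gene Casp12 also had no probe well above background in both channels on every array. The Mlkl, Birc3 and Trp53 probes were well above background on all 4 arrays but also dim, at mean log2 intensities of 7.26, 7.43 and 7.85.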
